A study of Homo sapiens with 60 samples.

Results

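Cells of the 1321N1 line, a human line of astrocytoma origin used as an astrocyte model, were treated with cadmium or mercury for 12 h, and the 3 cadmium libraries were compared directly with the 3 mercury libraries across all genes with enough counts. These 6 libraries were chosen by their titles out of the 60 of the series, which also holds arsenic, non-treated cells (nt), and treatments of 1.5, 3, 6, and 24 h, with 3 libraries in each of 20 groups. Cadmium was given as cadmium chloride at 2.3 µM and mercury as mercury chloride at 20 µM, both in full medium, and RNA was sequenced from the 3′ end. The concentrations had been picked for similar toxicity and are not equal, so that the metal and its dose cannot be told apart. The labels number the replicates without saying that they were separate cultures, and the p-values cover only the spread between these libraries, which may be technical. The line is 1 cell line, and of the 12 astroglial markers examined, S100B, AQP4, ALDH1L1, and FABP7 had 0 counts in the 9 libraries of cadmium, mercury, and nt at 12 h.

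Cadmium and mercury both bind the thiol groups of proteins and of glutathione. Non-essential metals such as these can also displace zinc from proteins, and free zinc activates the metal regulatory transcription factor MTF1. MTF1 binds metal response elements and drives the metallothioneins, small cysteine-rich proteins that chelate metals, and SLC30A1, the zinc exporter of the plasma membrane. Damage to proteins, loss of amino acids, or oxidative stress engages other programs, among them the integrated stress response, in which the transcription factor ATF4 raises amino acid transport and synthesis, and the NRF2 response, which raises enzymes of glutathione synthesis, iron handling, and detoxification.

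All 4 tested metallothioneins and SLC30A1 were higher with cadmium. The genes higher with mercury included 4 called members each of the integrated stress response list (23 tested) and the NRF2 list (40 tested), beside 0.3% of all genes. The promoters of MT1X, MT2A, and SLC30A1, as known MTF1 targets, and of CHAC1, which had the larger LFC of the 2 genes that passed a test of an LFC beyond 1 on the mercury side, are shown (RefSeq, GRCh38.p14, from 250 bases before to 50 bases after the start, 5′ to 3′ on the gene's strand). Capitals mark the metal response element, searched as TGCACNC or TGCGCNC on both strands, in the first 3, and the CCAAT-enhancer-binding protein-ATF element, searched as TGATGNAA on both strands, in CHAC1. They lie at chr16:56682220-56682519 on the plus strand (MT1X), chr16:56608334-56608633 on the plus strand (MT2A), chr1:211579112-211579411 on the minus strand (SLC30A1), and chr15:40953221-40953520 on the plus strand (CHAC1).
MT1X: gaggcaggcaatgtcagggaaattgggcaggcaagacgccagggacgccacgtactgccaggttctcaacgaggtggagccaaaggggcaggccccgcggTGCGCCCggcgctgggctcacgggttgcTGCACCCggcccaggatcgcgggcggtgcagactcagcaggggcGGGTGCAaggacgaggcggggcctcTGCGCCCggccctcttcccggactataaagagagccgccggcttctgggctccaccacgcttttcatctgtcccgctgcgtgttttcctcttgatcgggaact
MT2A: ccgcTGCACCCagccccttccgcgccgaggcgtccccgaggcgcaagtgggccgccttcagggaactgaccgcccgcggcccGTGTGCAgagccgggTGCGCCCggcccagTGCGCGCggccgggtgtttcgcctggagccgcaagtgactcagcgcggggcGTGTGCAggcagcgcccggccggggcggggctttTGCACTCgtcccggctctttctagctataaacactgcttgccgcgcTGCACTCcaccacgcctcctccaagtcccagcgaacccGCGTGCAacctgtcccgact
SLC30A1: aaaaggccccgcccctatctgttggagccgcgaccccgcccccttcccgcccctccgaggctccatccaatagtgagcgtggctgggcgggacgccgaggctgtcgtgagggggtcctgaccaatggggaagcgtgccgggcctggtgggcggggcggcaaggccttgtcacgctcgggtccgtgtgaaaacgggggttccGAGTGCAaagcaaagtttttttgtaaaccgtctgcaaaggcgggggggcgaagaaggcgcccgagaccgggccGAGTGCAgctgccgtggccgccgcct
CHAC1: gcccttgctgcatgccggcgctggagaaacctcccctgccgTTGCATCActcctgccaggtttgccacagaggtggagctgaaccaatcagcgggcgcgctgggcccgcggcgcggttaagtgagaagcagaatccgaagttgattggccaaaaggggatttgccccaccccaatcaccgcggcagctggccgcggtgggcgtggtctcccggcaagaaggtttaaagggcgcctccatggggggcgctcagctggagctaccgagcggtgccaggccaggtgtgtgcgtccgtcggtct
The metal response element was found 4 times in the MT1X window, 8 times in that of MT2A, and 2 times in that of SLC30A1. Of all 27305 promoters in the table, 29.3% held at least 1 match and 8.59% held 2 or more. A promoter was listed for 23 of the 35 genes called higher with cadmium, not including MT1E, and 10 of these (43.5%) held the element. The element was also in 9 of 29 (31%) of those called higher with mercury and in 39.4% of the 9446 tested genes with a listed promoter. The ATF element was found once in the CHAC1 window, in 3.67% of all promoters, and in 1.63% of the same 9446 tested genes. It was in 3 of 29 (10.3%) of those called higher with mercury and in 0 of 23 of those called higher with cadmium. A match describes the letters of the window and is no evidence of a bound factor.

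Of 12341 genes tested, 72 (0.583%) were called, meaning that the log2 fold change (LFC) of cadmium over mercury lay beyond 1 in either direction and the adjusted p lay under 0.05 (edgeR quasi-likelihood test with Benjamini–Hochberg adjustment). Cadmium was higher in 35 of them (0.284%) and mercury in 37 (0.3%). At an adjusted p under 0.05 without the threshold on the LFC, 406 genes (3.29%) passed, 183 (1.48%) higher with cadmium and 223 (1.81%) higher with mercury, and the median LFC of all genes was 0.00. The shares of 1.48% and 1.81% are the background for the counts of list members given below. The libraries of both metals did not overlap for 71 of the 72 called genes, with USP53 as the exception, and for 20.5% of all genes tested. In the same fit, 214 genes (1.73%) were called between cadmium and nt at 12 h and 463 (3.75%) between mercury and nt. These comparisons share the cadmium or the mercury libraries with the direct one, and their values are given side by side.

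The genes called on both sides differed in where the nt level lay. Of the 35 genes called higher with cadmium, 7 had their nt mean below both metals, 21 between them, and 7 above both. Of the 37 called higher with mercury, the nt mean lay below both metals for 25, between them for 9, and above both for 3. Over all genes tested, the shares were 35.2%, 25.8%, and 39.1%. Many called genes were low, with a mean under 50 counts in the 6 libraries for 24 of the 35 and for 18 of the 37. The thresholds passed through a dense part of the list, with VEGFA at an LFC of -1.004 and SLC1A4 at -1.02 inside, TRIB3 at -0.995 and CAMTA2 at -0.98 outside, ZNF512B at 1.003 inside, and NUDT16L1 at 0.999 outside.

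**Figure D1:**
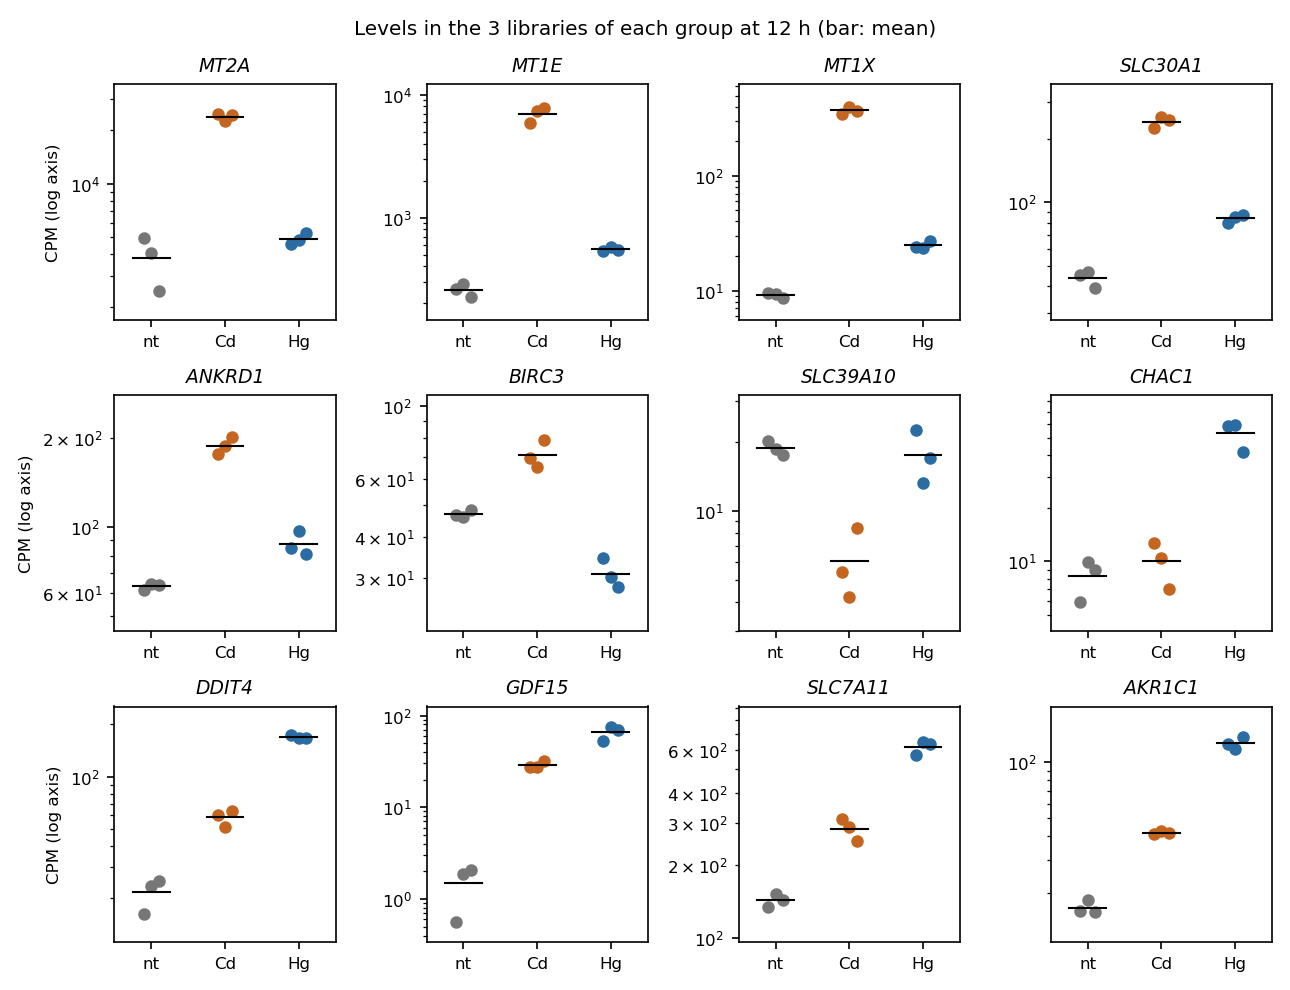
Counts scaled to library size (CPM, log axis) of 12 genes in each of the 3 libraries of non-treated (nt), cadmium (Cd), and mercury (Hg) cells at 12 h, with the mean as a bar. The first 6 genes sat higher with cadmium than with mercury in each library and the last 6 lower, and for SLC39A10 the nt libraries sat with mercury, between 17.5 and 20.1 CPM.

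MT1X and MT1E had the largest fitted LFCs among called genes apart from MT1B, for which only a bound can be given. Of 11 genes on the list, MT1X, MT1E, MT2A, and MT1B had enough counts to be tested, and all 4 were higher with cadmium (3 of them also in DESeq2, which gave MT1B no adjusted p). In counts scaled to library size (CPM), MT1E (chr16:56625475-56627112) was at 5848, 7360, and 7783 with cadmium, at 533, 576, and 548 with mercury, and at 263, 286, and 226 in nt cells. The groups did not overlap, with mercury above nt and cadmium far above both. The LFC of cadmium over mercury was 3.66 ± 0.11 (SE, adjusted p = 5.37e-38, edgeR). MT1X (chr16:56682470-56684196) was at 346, 397, and 370 CPM with cadmium, at 24.1, 23.6, and 26.9 CPM with mercury, and at 9.51, 9.26, and 8.64 CPM in nt cells, which gave an LFC of 3.89 ± 0.17 between the metals (adjusted p = 4.11e-29, edgeR). The order of the groups was the same as for MT1E.

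MT2A (chr16:56608584-56609497) was the most abundant of the family, at 24963, 22685, and 24324 CPM with cadmium and at 4544, 4786, and 5248 CPM with mercury. In nt cells it was at 4901, 4042, and 2451 CPM, and the mercury libraries overlapped the nt libraries through nt replicate 1. The nt mean at 12 h, 3798 ± 1243 CPM (SD, n = 3), was above the nt means of 2592 CPM at 6 h and 1753 CPM at 24 h. The LFC was 2.30 ± 0.19 between the metals (adjusted p = 1.82e-14, edgeR), 2.66 for cadmium over nt, and 0.36 for mercury over nt, which did not pass the test (adjusted p = 0.199, edgeR). MT1B was counted 9, 14, and 16 times with cadmium and 0 times in each mercury and nt library. Against a floor of 3 counts per library it was at least 4.52-fold higher with cadmium than with mercury, and at least 5.6-fold higher than in nt cells. With MT1B at this bound, the median LFC of the 4 genes was 2.98. Metallothionein transcripts together took 2.91% to 3.10% of all counts with cadmium, 0.500% to 0.563% with mercury, and 0.272% to 0.506% in nt cells. Of the nt libraries, replicates 1 and 2 stood at 0.506% and 0.437% and replicate 3 at 0.272%, so that the comparison of mercury with nt rests on uneven nt libraries.

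The genes of this cluster share stretches of sequence with each other or with further genes, and reads could be split between them. Stretches of 50 bases taken near the transcript end, within 400 bases of it, were also present in another gene for 34.7% of those of MT1X, 18.4% of MT1B, 6.19% of MT1E, and 6.11% of MT2A. A gene without a symbol, ENSG00000289942, annotated as a long non-coding RNA of 115 bases at chr4:68376551-68376665, was likewise higher with cadmium (875, 1388, and 1296 CPM) than with mercury (234, 249, and 271 CPM) or in nt cells (117, 144, and 119 CPM), with an LFC of 2.24 ± 0.13 (adjusted p = 1.66e-21, edgeR). In an alignment of its transcript with that of MT2A, 97 of 100 columns were identical, and they lay at positions 302 to 401 of the 401 bases of MT2A, the end from which 3′ sequencing reads. Its counts were 3.5% to 6.12% of those of MT2A with cadmium, 5.16% to 5.21% with mercury, and 2.39% to 4.87% in nt cells. Whether its reads came from MT2A was not tested.

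SLC30A1 (chr1:211571568-211579161, minus strand), which moves zinc out of the cell, was at 224, 253, and 246 CPM with cadmium, at 79.8, 85.2, and 86.7 CPM with mercury, and at 45.3, 46.9, and 39.3 CPM in nt cells. The 3 groups did not overlap. The LFC was 1.52 ± 0.12 between the metals (adjusted p = 6.09e-15, edgeR), 2.46 for cadmium over nt, and 0.94 for mercury over nt. It was the only member of the SLC30 family, of 6 tested, that differed between the metals, and the median of the family was -0.09.

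Of 10 zinc importers of the SLC39 family tested, SLC39A10 alone differed (chr2:195575977-195737702), and it was lower with cadmium. Its levels were 5.44, 4.22, and 8.43 CPM with cadmium, 22.5, 13.3, and 17.0 CPM with mercury, and 20.1, 18.5, and 17.5 CPM in nt cells. Cadmium lay below the other groups, while the nt libraries lay within the range of the mercury libraries. The LFC was -1.52 ± 0.33 between the metals (adjusted p = 0.00195, edgeR) and -1.63 for cadmium over nt (adjusted p = 0.00025). For mercury over nt it was -0.11 (adjusted p = 0.85). SLC39A14, an importer that also carries iron and manganese, was at an LFC of -0.39 between the metals, which did not pass the test (adjusted p = 0.185, edgeR), and the median of the family was 0.02. None of the 16 selenoproteins tested passed in edgeR or DESeq2 (median 0.11), and 2 had an unadjusted p under 0.05 in edgeR.

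**Figure D2:**
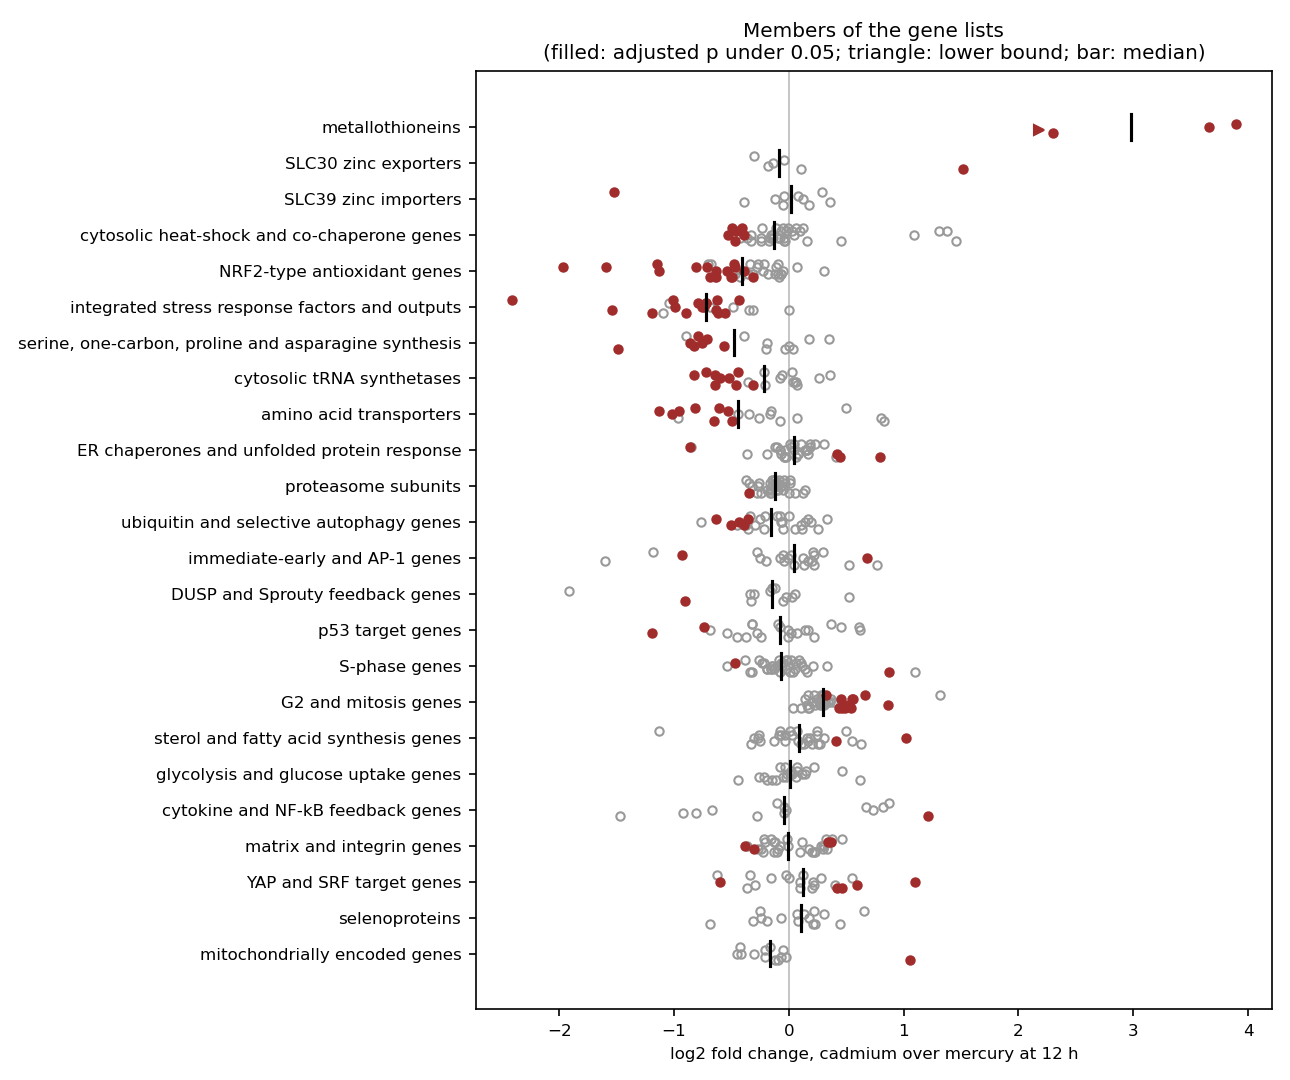
LFC of cadmium over mercury at 12 h (x axis) for the tested members of each gene list (y axis), filled where the adjusted p was under 0.05, with the median as a bar and MT1B as a triangle at its lower bound. Metallothioneins lie far to the right, the members that passed in the integrated stress response and NRF2 lists all lie to the left, and those of the G2 and mitosis list all lie to the right.

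Transcripts of the integrated stress response were higher with mercury. Of 23 genes tested on the list, 16 passed the test, all with mercury higher, and the median LFC was -0.72, beside 1.81% of all genes and a median of 0.00. CHAC1, which degrades glutathione, had the second largest LFC among the 37 genes called higher with mercury, after LUCAT1. CHAC1 (chr15:40952962-40956512) was at 12.7, 10.4, and 7.02 CPM with cadmium, at 58.1, 59.3, and 41.6 CPM with mercury, and at 5.87, 9.88, and 8.90 CPM in nt cells. The cadmium libraries overlapped the nt libraries, and the mercury libraries lay above both. The LFC was -2.41 ± 0.28 between the metals (adjusted p = 3.66e-09, edgeR), 2.68 for mercury over nt, and 0.27 for cadmium over nt (adjusted p = 0.7).

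For most other genes of the list both metals raised the transcript and mercury did so by more. Of the 16, 15 were higher with mercury than in nt cells and 14 higher with cadmium than in nt cells. DDIT4, an inhibitor of the growth kinase mTORC1, was at 59.9, 51.6, and 63.6 CPM with cadmium, at 174, 166, and 167 CPM with mercury, and at 16.2, 23.5, and 24.9 CPM in nt cells. Its 3 groups were well apart, with an LFC of -1.54 ± 0.17 between the metals (adjusted p = 3.08e-10, edgeR). GDF15, a secreted stress hormone, was at 27.2, 27.3, and 32.0 CPM with cadmium, at 52.4, 75.5, and 69.5 CPM with mercury, and at 0.559, 1.85, and 2.10 CPM in nt cells (LFC -1.19 ± 0.23 between the metals, adjusted p = 0.000288, edgeR). Both metals lay far above nt, mercury highest.

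The transcription factors of this response differed by less. ATF4 itself had an LFC of -0.72, CEBPB of -0.79, and the pseudokinase TRIB3, which binds ATF4, of -0.995. DDIT3 (CHOP, LFC -0.62) passed with all libraries but not when any 1 of 5 of the 6 was left out (adjusted p up to 0.122, edgeR) nor without a filter on low counts, and ATF3 (LFC -0.89) did not pass without cadmium replicate 2 or mercury replicate 2 (up to 0.169). PPP1R15A, the phosphatase subunit that ends the response, had an LFC of -0.56, which did not pass without mercury replicate 2. ATF5 differed from the rest in that cadmium lowered it, to between 25.6 and 35.8 CPM, while mercury (47.5 to 57.0 CPM) and nt cells (46.9 to 65.2 CPM) overlapped. For ATF4, 31.3% of the 50-base stretches near the transcript end also occurred in its pseudogenes.

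An antisense transcript went the other way from its neighbour. CEBPB-AS1, a non-coding RNA named for its place opposite CEBPB and picked after its values were seen, was counted 20, 29, and 21 times with cadmium, 3, 5, and 2 times with mercury, and 3, 2, and 11 times in nt cells (LFC 2.86 ± 0.65 between the metals, adjusted p = 0.00346, edgeR). CEBPB was at 353, 338, and 347 CPM with cadmium, at 563, 631, and 599 CPM with mercury, and at 157, 197, and 144 CPM in nt cells. Thus CEBPB was highest with mercury and CEBPB-AS1 with cadmium. Reads were counted by strand.

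Of 16 tested genes of serine, one-carbon, proline, and asparagine synthesis, 7 passed, all higher with mercury, beside 1.81% of all genes (median -0.48). They were CTH, GPT2, MTHFD2, PCK2, PHGDH, PSAT1, and GOT1. CTH, which makes cysteine from cystathionine, was at 12.7, 8.44, and 12.6 CPM with cadmium, at 26.6, 36.3, and 31.4 CPM with mercury, and at 1.96, 3.09, and 2.36 CPM in nt cells (LFC -1.49 ± 0.29, adjusted p = 0.000369, edgeR). PHGDH, the entry enzyme of serine synthesis, had an LFC of -0.76 and MTHFD2, a mitochondrial folate enzyme, of -0.83. Of 21 cytosolic tRNA synthetases, 9 passed, all higher with mercury, beside 1.81% of all genes (median -0.21). CARS1 among them also counts on the integrated stress response list. All 9 were above nt with mercury and 4 of them with cadmium, and WARS1 had the largest LFC at -0.82.

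Of 19 amino acid transporters tested, 8 were higher with mercury and none with cadmium, beside 1.81% and 1.48% of all genes (median -0.44). These 8 include SLC7A11, which also counts among the NRF2-type genes. SLC7A11, the cystine importer that feeds glutathione synthesis, was at 311, 288, and 252 CPM with cadmium, at 574, 649, and 635 CPM with mercury, and at 135, 152, and 144 CPM in nt cells. The 3 groups were apart, with an LFC of -1.13 ± 0.11 between the metals (adjusted p = 1.16e-12, edgeR). Its partner chain SLC3A2 was at 270, 326, and 323 CPM with cadmium and 389, 474, and 437 CPM with mercury, an LFC of -0.50 ± 0.10 (adjusted p = 0.000401, edgeR). SLC7A5, another partner of SLC3A2, imports large neutral amino acids. It differed by -0.53 ± 0.15 (adjusted p = 0.0328, edgeR) and did not pass when any 1 of 4 libraries was left out. SLC1A4, a neutral amino acid transporter, was at 36.3, 41.2, and 39.3 CPM with cadmium, at 66.7, 82.9, and 87.7 CPM with mercury, and at 24.1, 22.2, and 20.4 CPM in nt cells (LFC -1.02 ± 0.16, adjusted p = 8.72e-06, edgeR). SLC6A9, the glycine transporter, was at 7.71, 16.6, and 11.2 CPM with cadmium, overlapping nt (7.83 to 10.7 CPM), and at 23.7, 24.0, and 22.7 CPM with mercury (LFC -0.96 ± 0.24, adjusted p = 0.00959, edgeR). SLC6A9 did not pass without cadmium replicate 1 (LFC -0.75, adjusted p = 0.119, edgeR) or cadmium replicate 3.

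**Figure D3:**
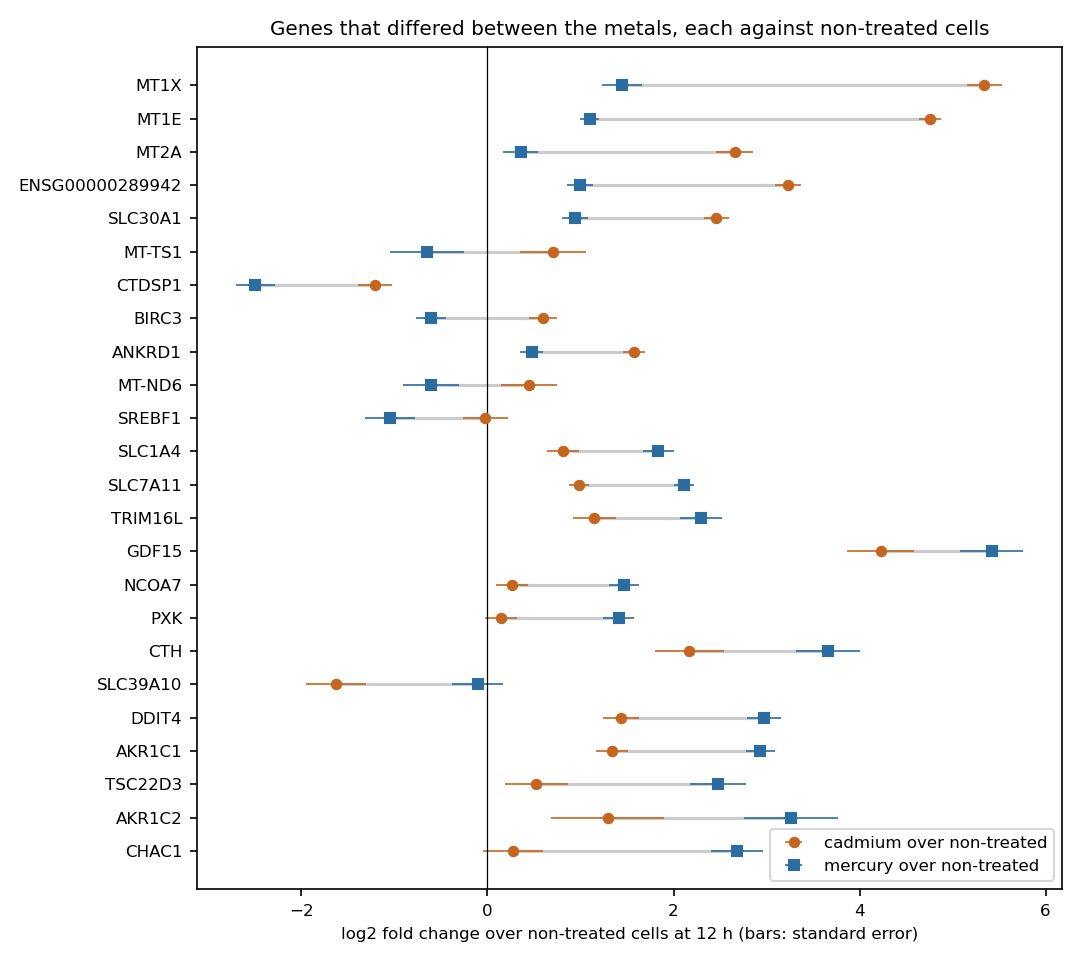
LFC over non-treated cells at 12 h (x axis, bars for the standard error) of cadmium (circles) and mercury (squares) for the genes named by rule that were called between the metals, other than MT1B. Both metals share the nt libraries. CTDSP1 was lowered by both, BIRC3 was raised by cadmium and lowered by mercury, and SLC39A10 was lowered by cadmium with mercury near 0.

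Antioxidant genes of the NRF2 type were higher with mercury in 16 of 40 genes tested and higher with cadmium in none, with a median LFC of -0.41. Over all genes the shares were 1.81% and 1.48%. All 16 were above nt with mercury and 12 of them with cadmium. AKR1C1, an aldo-keto reductase, was at 41.3, 42.9, and 41.8 CPM with cadmium, at 126, 118, and 137 CPM with mercury, and at 15.9, 18.2, and 15.7 CPM in nt cells, with no overlap (LFC -1.59 ± 0.14, adjusted p = 2.24e-13, edgeR). Its neighbour AKR1C2 was counted 18, 30, and 42 times with mercury and 6, 6, and 9 times with cadmium (LFC -1.97 ± 0.46, adjusted p = 0.00415, edgeR). Reads could be shared between the family members, as 31.4% and 34.9% of the 50-base stretches near the ends of AKR1C1 and AKR1C2 occurred in another gene, and the call of AKR1C2 was lost without cadmium replicate 2 or mercury replicate 3, with an adjusted p of up to 0.0545. TRIM16L, for which 49.6% of the stretches were shared, had an LFC of -1.15. TRIM16 had one of -0.71, which did not pass when any 1 of 4 libraries was left out (adjusted p up to 0.117, edgeR).

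The most induced antioxidant gene, HMOX1, which degrades haem, rose with both metals and differed between them by far less than from nt. It was at 907, 1040, and 911 CPM with cadmium, at 1169, 1665, and 1592 CPM with mercury, and at 18.7, 19.1, and 21.0 CPM in nt cells. The LFC was -0.63 ± 0.13 between the metals (adjusted p = 0.000612, edgeR), beside 5.60 for cadmium and 6.23 for mercury over nt. GCLM, the modifier subunit of the first enzyme of glutathione synthesis, had an LFC of -0.54, and the ferritin chains FTH1 and FTL of -0.47 and -0.39. NFE2L2, which encodes NRF2, had an LFC of -0.50, which did not pass when any 1 of 4 libraries was left out (adjusted p up to 0.147, edgeR). TXNRD1, a thioredoxin reductase, was at -0.31 and did not pass the test (adjusted p = 0.29, edgeR).

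Most heat-shock genes were raised by both metals, and few differed between them. Of 42 tested, 7 passed between the metals in edgeR, all higher with mercury, beside 1.81% of all genes. In DESeq2 10 passed, of which 1 was higher with cadmium. The median LFC was -0.12. Against nt, 30 of the 42 were higher with cadmium (5.19% of all genes) and 32 with mercury (8.89% of all genes). HSPA1B, an inducible HSP70, was at 700, 792, and 912 CPM with cadmium and 969, 1290, and 1125 CPM with mercury, against 67.4, 81.8, and 58.9 CPM in nt cells (LFC -0.49 ± 0.14 between the metals, adjusted p = 0.026, edgeR). HSPA1B did not pass when any 1 of 4 of the 6 libraries was left out (adjusted p up to 0.244, edgeR) or in DESeq2 (0.0611). BAG3, a co-chaperone of HSP70, had an LFC of -0.53, and DNAJB1, an HSP40, one of -0.41 that did not pass when any 1 of 5 libraries was left out (up to 0.152). Of 28 ubiquitin and selective autophagy genes, 5 were higher with mercury, beside 1.81% of all genes (median -0.16). The cargo receptor SQSTM1, which is also on the NRF2 list, was at -0.63. Of 36 proteasome subunits, 1 passed (PSMD11, LFC -0.35) and 5 did in DESeq2, with a median of -0.12.

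Chaperones of the endoplasmic reticulum did not follow the mercury side. Of 33 genes of the ER chaperone and unfolded protein response list, 3 were higher with cadmium and 1 with mercury, with a median of 0.05. HSPA5 (BiP), the main chaperone of the ER lumen, was at 1915, 1988, and 1891 CPM with cadmium, at 1355, 1481, and 1415 CPM with mercury, and at 962, 926, and 878 CPM in nt cells (LFC 0.45 ± 0.07, adjusted p = 3e-05, edgeR). SDF2L1, which assists BiP, was at 59.0, 64.9, and 56.5 CPM with cadmium, at 34.0, 31.7, and 38.1 CPM with mercury, and at 35.2, 32.7, and 34.0 CPM in nt cells. Mercury overlapped nt for this gene, and the LFC between the metals was 0.80. MANF, a secreted ER stress protein, had an LFC of 0.42. XBP1, a transcription factor of the same response, went the other way, at 98.9, 111, and 120 CPM with cadmium and 195, 203, and 201 CPM with mercury (LFC -0.86 ± 0.10, adjusted p = 8.97e-09, edgeR).

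Of 39 G2 and mitosis genes tested, 12 passed between the metals, all higher with cadmium, beside 1.48% of all genes. The LFC was above 0 for all 39, beside 6227 of all 12341 genes, with a median of 0.30. Against nt, 23 of the 39 were lower with mercury (7.16% of all genes) and 1 was lower with cadmium (2.99% of all genes). These comparisons share their libraries with the direct one. CDC20, an activator of the anaphase-promoting complex, was at 151, 159, and 170 CPM with cadmium, at 107, 93.9, and 104 CPM with mercury, and at 197, 188, and 170 CPM in nt cells (LFC 0.66 ± 0.11, adjusted p = 4.3e-05, edgeR). PLK1, a mitotic kinase, had an LFC of 0.55, and CCNF (cyclin F) of 0.86. CCNB1 (cyclin B1) had one of 0.47, which did not pass when any 1 of 4 libraries was left out (adjusted p up to 0.121, edgeR). In bulk RNA, fewer cells in mitosis and less of these RNAs per cell cannot be told apart. Of 38 S-phase genes, MCM7, a subunit of the replicative helicase, was higher with cadmium (LFC 0.88) and CDC6, which loads that helicase, higher with mercury (-0.47). Mercury and cadmium both lowered MCM7 against nt, to between 96.3 and 102 CPM and between 175 and 188 CPM from between 261 and 287 CPM.

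Of 32 sterol and fatty acid synthesis genes, SREBF1 and FASN were higher with cadmium (median of the list 0.09). SREBF1, a transcription factor of lipid synthesis, was at 22.2, 17.9, and 15.8 CPM with cadmium, at 11.5, 5.83, and 10.2 CPM with mercury, and at 21.3, 19.8, and 15.5 CPM in nt cells (LFC 1.02 ± 0.27, adjusted p = 0.019, edgeR). Cadmium overlapped nt and mercury lay below. However, the adjusted p was not under 0.05 without 3 of the single libraries (cadmium replicate 1 or 2, or mercury replicate 2), with values up to 0.218 (edgeR). None of 23 glycolysis and glucose uptake genes passed in edgeR (median 0.01), where 2 had an unadjusted p under 0.05, and 1 passed in DESeq2.

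A few other genes with enough counts stood out on the cadmium side. ANKRD1, a muscle ankyrin repeat protein and a known target of YAP, was at 176, 187, and 201 CPM with cadmium, at 85.1, 96.5, and 81.0 CPM with mercury, and at 61.2, 64.2, and 63.6 CPM in nt cells (LFC 1.1 ± 0.11, adjusted p = 6.39e-11, edgeR). Of 21 YAP and SRF target genes, 4 passed with cadmium higher and 1, CCN2, with mercury higher (median 0.13), and CCN2 did not pass in DESeq2. BIRC3, an inhibitor of apoptosis induced by NF-kB, was at 69.4, 65.3, and 78.7 CPM with cadmium, at 34.4, 30.1, and 28.2 CPM with mercury, and at 46.7, 46.0, and 48.2 CPM in nt cells. The nt level lay between the metals, with BIRC3 raised by cadmium and lowered by mercury (LFC 1.21 ± 0.16 between the metals, adjusted p = 1.23e-07, edgeR). CTDSP1, a phosphatase of the RNA polymerase II tail, was lowered by both, to 32.7, 32.1, and 26.3 CPM with cadmium and 9.82, 18.1, and 8.96 CPM with mercury from 77.5, 64.9, and 68.4 CPM (LFC 1.28 ± 0.23, adjusted p = 7.48e-05, edgeR). Of 14 cytokine and NF-kB feedback genes, BIRC3 alone passed (median -0.04).

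On the mercury side, NCOA7, a nuclear receptor coactivator, was at 39.5, 55.5, and 42.1 CPM with cadmium, at 108, 113, and 98.6 CPM with mercury, and at 35.5, 37.1, and 42.4 CPM in nt cells (LFC -1.21 ± 0.16, adjusted p = 1.45e-07, edgeR). PXK, a protein of endosomal trafficking, was at 43.6, 44.5, and 52.0 CPM with cadmium, at 113, 115, and 109 CPM with mercury, and at 34.7, 46.3, and 46.1 CPM in nt cells (LFC -1.27 ± 0.17, adjusted p = 9.09e-08, edgeR). TSC22D3 (GILZ), a glucocorticoid-induced regulator, was at 14.1, 8.77, and 7.37 CPM with cadmium, at 33.1, 45.7, and 36.2 CPM with mercury, and at 4.75, 11.1, and 4.98 CPM in nt cells (LFC -1.96 ± 0.30, adjusted p = 3.51e-06, edgeR). For all 3 genes cadmium overlapped nt and mercury lay above. NIBAN1, a stress-induced gene picked after its values were seen, had the same order, at 97.5, 123, and 96.9 CPM with cadmium, 228, 242, and 226 CPM with mercury, and 95.1, 106, and 105 CPM in nt cells.

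Among the low genes, which were picked after their values were seen, LUCAT1 had the largest LFC among those called higher with mercury. This non-coding RNA was counted 38, 38, and 29 times with mercury, 5, 3, and 5 times with cadmium, and 3, 3, and 4 times in nt cells (LFC -2.90 ± 0.64, adjusted p = 0.0024, edgeR). RIMS3, a synaptic scaffold protein, was higher with cadmium, at 29.9, 10.1, and 8.78 CPM against 2.46, 0.972, and 3.84 CPM with mercury and 5.31, 2.47, and 2.36 CPM in nt cells, with cadmium replicate 1 far above the others. MEGF6, an extracellular protein, was at 23.1, 20.1, and 24.9 CPM with cadmium, close to nt at 19.0, 20.1, and 16.2 CPM, and at 6.55, 9.07, and 4.48 CPM with mercury (LFC 1.75 ± 0.27, adjusted p = 5.17e-06, edgeR). FOXP2, a transcription factor, was lower with cadmium, at 3.18, 1.95, and 1.76 CPM against 4.5, 10.0, and 9.28 CPM with mercury and 5.31, 7.41, and 6.81 CPM in nt cells (LFC -1.83 ± 0.45, adjusted p = 0.00845, edgeR). The call of FOXP2 was lost without cadmium replicate 2 or 3 or mercury replicate 2 (adjusted p up to 0.0766, edgeR).

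Mitochondrial transcripts were split by strand. Of 17 genes of the plus strand none passed in edgeR or DESeq2 and 1 had an unadjusted p under 0.05 in edgeR, with a median LFC of -0.12. Of 8 genes of the minus strand, MT-ND6, a subunit of complex I, and the tRNA genes MT-TC and MT-TS1 had higher counts with cadmium. The median of the 7 that lay above the floor, all but MT-TE, was 1.06. Summed over the strand, the levels were 762, 1018, and 747 CPM with cadmium, 347, 506, and 409 CPM with mercury, and 621, 698, and 547 CPM in nt cells, so that mercury lay below and cadmium above nt. Most of each sum was MT-ND6, and without it the sums were 128, 257, and 167 CPM with cadmium, 94.1, 124, and 94.7 CPM with mercury, and 141, 147, and 129 CPM in nt cells, where cadmium overlapped nt. MT-TC was at 8.62, 15.3, and 15.5 CPM with cadmium, 2.46, 5.51, and 5.12 CPM with mercury, and 8.39, 4.01, and 5.76 CPM in nt cells. Its LFC of 1.57 ± 0.33 (adjusted p = 0.00124, edgeR) passed with any 1 library left out. MT-ND6 was at 633, 761, and 580 CPM with cadmium and 252, 381, and 314 CPM with mercury (LFC 1.06 ± 0.31, adjusted p = 0.0363, edgeR). The call of MT-ND6 was lost when any of the 6 libraries was left out and in DESeq2, and that of MT-TS1 (LFC 1.36, adjusted p = 0.0318, edgeR) when any 1 of 4 libraries was left out, cadmium replicate 2 among them, where it stood at 45.1 CPM against 11.3 and 22.1 CPM. Neither MT-ND6 nor MT-TS1 differed from nt with either metal at an adjusted p under 0.05. Whether the counts of these minus-strand genes came from the mature transcripts was not tested. The split by strand was made after values were seen.

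The gap between the metals was compared with those at 6 and 24 h by testing the difference of both gaps. At 24 h 540 genes (4.38%) were called between the metals and at 6 h 80 (0.648%). The gap itself differed between 12 and 24 h for 48 genes (0.389%) and between 12 and 6 h for 11 genes (0.0891%). Of the 48, the gap was smaller at 12 h in 45. The count of 48 moved to 79 without cadmium replicate 2 at 24 h and to 31 without cadmium replicate 3 at 24 h, and the count of 11 moved to 7 without cadmium replicate 2 at 12 h and to 38 without mercury replicate 3 at 6 h. Of the genes called at 12 h, 31 of the 35 higher with cadmium and 35 of the 37 higher with mercury had the same sign at 24 h, and 27 and 34 at 6 h, beside 7932 and 6974 of all 12341 genes. At 6 h, 15 of the 35 and 15 of the 37 also passed the test with the same sign, beside 378 of all 12341 genes. At 24 h, 20 of the 35 and 31 of the 37 did, beside 2082 of all genes. Among the libraries of 6 h, cadmium replicate 1 had 1.35% mitochondrial counts against 5.08% and 5.84% in the other cadmium libraries, and mercury replicate 3 had 0.472% metallothionein counts against 0.895% and 0.944% in the other mercury libraries. The count of 11 was 10 without this cadmium library.

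The gap of all 4 metallothioneins had passed at 6 h, and it was wider at 12 h for 3 of them. For MT1E the LFC of cadmium over mercury was 2.16, 3.66, and 3.52 at 6, 12, and 24 h in turn, for MT1X it was 2.65, 3.89, and 4.49, and for MT2A it was 0.66, 2.30, and 2.97. The rise from 6 to 12 h passed for each (MT1E 1.50, MT1X 1.24, and MT2A 1.65, adjusted p = 1.71e-11, 0.0026, and 0.000153, edgeR), and the change from 12 to 24 h did not (adjusted p = 0.72, 0.267, and 0.221). Each of these rises also passed without mercury replicate 3 or cadmium replicate 1 at 6 h, with MT2A at 1.94 and 1.64 in turn. From 6 to 12 h the mean of MT2A went from 11553 to 23990 CPM with cadmium and from 7337 ± 2837 (SD, n = 3) to 4860 CPM with mercury, of which the 6 h mean includes the library of low metallothionein counts. SLC30A1 had LFCs of 1.33, 1.52, and 0.66 in the same order. The change of its gap from 6 to 12 h did not pass (0.19, adjusted p = 0.776, edgeR), and the fall from 12 to 24 h passed (0.86 ± 0.17, adjusted p = 0.0026, edgeR).

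HSPA5 and SDF2L1 changed sides between 6 and 12 h, while the list of 33 ER genes had medians of -0.09, 0.05, and -0.08 at 6, 12, and 24 h. HSPA5 was higher with mercury at 6 h (LFC -0.65) and higher with cadmium at 12 h (0.45), a change of 1.09 ± 0.11 (adjusted p = 1.92e-11, edgeR), with means of 1024 and 1931 CPM with cadmium and of 1602 and 1417 CPM with mercury. SDF2L1 changed from -0.62 to 0.80 (adjusted p = 0.000288, edgeR). Both changes passed without either of the 6 h libraries that stood apart. For several stress genes the gap was wider at 24 h. The LFC of HMOX1 went from -0.63 at 12 h to -2.41 at 24 h, a difference of 1.78 ± 0.18 (adjusted p = 1.77e-10, edgeR), with means of 953 and 359 CPM with cadmium and of 1475 and 1905 CPM with mercury. GDF15 went from -1.19 to -2.71, BAG3 from -0.53 to -1.69, and AKR1C1 from -1.59 to -2.62.

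**Figure D4:**
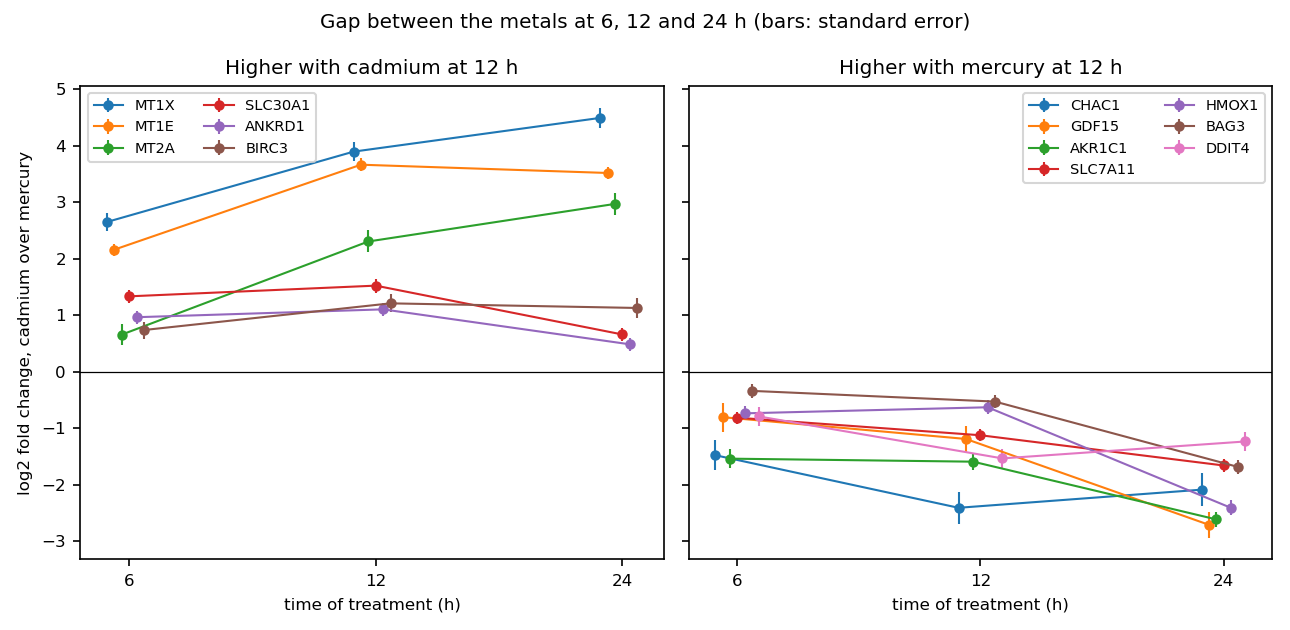
LFC of cadmium over mercury (y axis, bars for the standard error) at 6, 12, and 24 h (x axis, not to scale) for 6 genes higher with cadmium and 7 genes higher with mercury at 12 h. MT2A goes from 0.66 at 6 h to 2.30 at 12 h, and HMOX1 goes from -0.63 at 12 h to -2.41 at 24 h.

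Totals at 12 h ranged from 2327396 to 3227059 counts with cadmium, from 2493730 to 3232788 with mercury, and from 3216686 to 3769847 in nt cells, and 3 counts, the floor used here for counting error only, stood for about 1.05 CPM in the mercury libraries. Mitochondrial transcripts took 4.58% to 5.24%, 5.23% to 6.19%, and 5.16% to 6.43% of the counts. Astroglial markers summed to between 4530 and 6070 CPM with cadmium, 4560 and 4860 with mercury, and 4080 and 4860 in nt cells, mostly from VIM, and the myeloid markers to at most 1.29 CPM.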

How the data were processed

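RNA of 1321N1 cells was sequenced by QuantSeq 3′ mRNA-Seq. Single-end reads were aligned by the authors to GRCh38 using STAR 2.7.9a (version per the labels) and counted them on GENCODE exons by strand in Union mode, which leaves out reads over more than 1 gene. The deposited counts are whole numbers per gene without normalization, for 62703 genes and 92 spike-ins, which had 0 counts.

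All 60 libraries were fitted in edgeR 4.0.16 (R 4.3.3) with 1 coefficient per group, TMM factors, and filterByExpr (minimum count of 10, minimum total of 15). 12341 genes remained, with a common biological coefficient of variation of 0.12. Contrasts were tested by quasi-likelihood with Benjamini–Hochberg adjustment over all genes. The test gives no standard error, and the SE of an LFC was derived as its absolute value over the square root of the F statistic. CPM are counts scaled to the TMM-adjusted total of the tested genes, while shares of counts and marker sums use the whole library. Replicates differed beyond sampling noise (chi-square per degree of freedom of 2.22 to 4.44).

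Genes were named by rule: the 10 largest LFCs per direction among called genes without overlap whose mean reached 50 counts, up to 3 called members per list, the genes the study names, and the metallothionein, SLC30, and SLC39 families. Other list members and low genes were picked after their values were seen. The members and lists were chosen with earlier results of these data known. Alternatives were DESeq2 1.42.0, RLE factors, other filters, a replicate block, a fit of the compared libraries alone, a test of an LFC beyond 1 (glmTreat), and leaving out each library. Counts were simulated for this contrast (12091 genes) and judged at an adjusted p under 0.05 without the threshold on the LFC. Of 100 genes changed by an LFC of 1, 72 passed, as did 95 of 100 changed by 2 and 11 unchanged genes. The changed genes were drawn from those with a mean of at least 10 counts over all libraries, so these rates do not cover lower genes. Promoters were read from RefSeq tables (GRCh38.p14).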

Additional observations from a re-analysis of the deposited data

Results flagged for a closer look

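The difference between the metals at 12 h was set against that at the other times by a test of the difference of both gaps (edgeR, called at an adjusted p under 0.05 and an LFC beyond 1), and these members of the gene lists or named genes passed. Against 6 h, the gap of cadmium over mercury was larger at 12 h by 1.65 for MT2A, 1.5 for MT1E, and 1.24 for MT1X. It turned from mercury higher to cadmium higher for the ER chaperones HSPA5 (1.09) and SDF2L1 (1.42). It moved the other way, from cadmium higher at 6 h to no difference that passed at 12 h, for cyclin CCNE2 (-1.13) and IER5L (-1.22). Their adjusted p was not under 0.05 when any 1 of 8 and any 1 of 4 of the 12 libraries, in turn, was left out. For CCNE2, cadmium replicate 1 at 6 h was among them (adjusted p = 0.0981, edgeR).

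Against 24 h, the gap at 12 h was less on the mercury side for the small heat-shock protein HSPB8 by 5.16, HMOX1 by 1.78, the phosphatase DUSP5 by 1.6, GDF15 by 1.52, the ER co-chaperone DNAJB9 by 1.32, TXNRD1 by 1.26, BAG3 by 1.16, ZFAND2A by 1.13, DUSP4 by 1.1, MAFF and TRIB3 by 1.05 each, and AKR1C1 by 1.02. HSPB8 was at a mean of 16.3 CPM with cadmium and 6.65 CPM with mercury at 12 h (adjusted p = 0.375, edgeR), and at 2.33 and 34.4 CPM at 24 h. For CTDSP1 the gap was less on the cadmium side at 12 h (-1.19). NPHP4 (1.93, higher with cadmium at 12 h) and ZNF202 (-1.95, higher with mercury at 12 h) differed between the metals at 12 h and not at 24 h. Both had a mean under 50 counts. Of the 12 single libraries, leaving out any of 8 took the adjusted p of NPHP4 to 0.05 or above. The same held for any of 6 with CTDSP1, any of 3 with DNAJB9 and with ZNF202, and any of 2 with ZFAND2A. For AKR1C1, BAG3, DUSP4, MAFF, and TRIB3 the adjusted p stayed under 0.05. With a library left out, however, their LFC fell to as low as 0.90, 0.96, 0.98, 0.94, and 0.93 in turn, inside the threshold of 1.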

How the results depend on the processing

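The 72 genes called between the metals became 82 with DESeq2 (69 shared), 72 with RLE factors, 68 without a filter, 73 with a minimum count of 30, and 85 when the 6 libraries were fitted alone (64 shared). A test of an LFC beyond 1 left 9, with 7 higher with cadmium (MT1X, MT1E, MT1B, MT2A, ENSG00000289942, RIMS3, and SLC30A1) and 2 higher with mercury (AKR1C1 and CHAC1). It left 41 genes for cadmium against nt, 83 for mercury against nt, 1 for the gap at 12 against 24 h, and 0 for that against 6 h, where edgeR without this test called 11 and 1206 genes had an unadjusted p under 0.05. The gap counts rose to 79 and 25 without a filter and to 82 and 26 in DESeq2, against 48 and 11.

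With 1 library left out, the genes called between the metals ranged from 51 to 74, with 22 to 36 higher with cadmium (22 without mercury replicate 2) and 29 to 42 higher with mercury. The range was 168 to 234 for cadmium against nt, 381 to 499 for mercury against nt, 31 to 79 for the gap against 24 h, and 7 to 38 for that against 6 h. Of the 72 called genes, 39 stayed under an adjusted p of 0.05 in each of the 6 fits and 33 did not, and of the 25 of them named by rule 21 stayed. Deviations of same-numbered cadmium and mercury libraries correlated at -0.0618 to 0.0333, beside -0.038 to 0.0612 for other pairs. With nt, same-numbered pairs reached 0.117 for cadmium and 0.0931 for mercury, and other pairs 0.12 and 0.0589. With 3 libraries per group, these values do not settle whether the numbers pair the libraries. The replicate block gave 72 calls (71 shared), 217 and 456 against nt, and 46 and 12 for the gaps. At 2327396 to 3769847 counts a library, 3 counts correspond to about 1.05 CPM with mercury, and genes near this level rest on few counts.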
